A study of Homo sapiens with 40 samples.

Results

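The 30 genes described here encode the enzymes of the citric acid cycle and of the pyruvate metabolism that feeds it, out of 60708 genes counted. They were chosen by name: MPC1 and MPC2 of pyruvate import, the pyruvate dehydrogenase genes PDHA1, PDHB, DLAT, DLD and PDHX, and their regulators PDK2, PDK3 and PDP1. The mitochondrial cycle enzymes were CS, IDH3A, IDH3B, IDH3G, OGDH, DLST, SUCLA2, SUCLG1, SUCLG2, FH and MDH2. The cytosolic and NADP-linked enzymes were ACO1, IDH1, IDH2, MDH1, ME1 and ACLY, and the mitochondrial malic enzyme ME2 was listed with them. PC and PCK2 refill or draw on the cycle. All 30 passed the low-count filter in every comparison.

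Total RNA was sequenced from 8 groups of human breast cell lines, each with 3 libraries labelled as biological replicates. MI is MCF-10A, an immortalized breast epithelial line, and MII is its derivative transformed with HRAS (MCF-10AneoT). Both were grown as spheres in low-attachment plates, and each was left untreated (Ctrl) or given TGFβ1 at 2.5 ng/ml for 16 h (TGFβ). MDA-MB-231, a triple-negative breast cancer line, was grown as a monolayer in 4 groups: untreated wild-type cells (WT), cells labelled SLUG KO, a scrambled siRNA control (Csi), and siRNAs against SMAD2, SMAD3 and SMAD4 (siSMAD2/3/4). SLUG is the protein of SNAI2. Per the methods, the knockout was made with Cas9 protein and a guide to the start of SNAI2 exon 1, followed by expansion of single-cell colonies, so differences between clones and differences due to the gene cannot be told apart. Neither siRNA group is labelled as given TGFβ, and both carry another batch label than the other 18 libraries. Each line is 1 model, and MII and MI may differ in more than HRAS.

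Pyruvate enters the mitochondrion through a carrier of MPC1 and MPC2, and the pyruvate dehydrogenase complex turns it into acetyl-CoA. Kinases such as PDK2 and PDK3 shut the complex off by phosphorylating its E1 alpha subunit PDHA1, and the phosphatase PDP1 turns it back on. Acetyl-CoA joins oxaloacetate as citrate, which is oxidized stepwise back to oxaloacetate and yields NADH. Citrate can also leave the mitochondrion, where ACLY splits it into the acetyl-CoA used for lipids and histone acetylation. Cells have both an NAD-linked isocitrate dehydrogenase (IDH3A, IDH3B and IDH3G) and the NADP-linked enzymes IDH1 in the cytosol and IDH2 in the mitochondrion.

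The results turn on a pair of isocitrate dehydrogenases and a pair of kinases, in each of which the members moved in opposite directions after TGFβ. In MII the fall of IDH1 was small, its groups overlap, and its call was lost in 7 of 14 alternative fits. The 200 bases before the annotated main start of each are printed 5′ to 3′ on the gene's strand from GRCh38, because they differ in the motifs they hold. A link between these motifs and the changes was not tested. Capitals mark matches on either strand to the CCAAT box, to the GC box read as GGGCGG, to the E-box read as CACGTG, to the hypoxia response core read as ACGTG, or to the antioxidant response core read as TGACNNNGC. The hypoxia core also matches inside an E-box, and in IDH1 the antioxidant core overlaps a GC box.
IDH1 (minus strand of chr2:208255072-208255271, 66.5% G or C): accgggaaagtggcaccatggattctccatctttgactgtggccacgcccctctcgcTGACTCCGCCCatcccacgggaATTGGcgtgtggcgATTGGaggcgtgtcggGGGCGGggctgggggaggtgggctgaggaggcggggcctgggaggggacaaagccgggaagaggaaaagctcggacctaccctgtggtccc
IDH2 (minus strand of chr15:90102469-90102668, 81.0% G or C): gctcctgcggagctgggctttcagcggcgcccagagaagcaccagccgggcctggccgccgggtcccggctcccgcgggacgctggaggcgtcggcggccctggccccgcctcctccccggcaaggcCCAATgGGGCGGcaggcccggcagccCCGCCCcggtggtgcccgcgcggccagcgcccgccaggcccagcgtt
PDK2 (plus strand of chr17:50095151-50095350, 68.5% G or C): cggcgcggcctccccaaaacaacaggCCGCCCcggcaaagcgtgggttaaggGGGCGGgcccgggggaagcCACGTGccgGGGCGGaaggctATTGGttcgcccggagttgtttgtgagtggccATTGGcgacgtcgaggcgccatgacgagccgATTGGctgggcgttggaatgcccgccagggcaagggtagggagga
PDK3 (plus strand of chrX:24465086-24465285, 75.5% G or C): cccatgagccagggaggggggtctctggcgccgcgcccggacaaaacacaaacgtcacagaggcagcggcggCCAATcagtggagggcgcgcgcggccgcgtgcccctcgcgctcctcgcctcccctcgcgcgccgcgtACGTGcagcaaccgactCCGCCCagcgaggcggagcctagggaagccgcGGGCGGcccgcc
All 4 held a CCAAT box and a GC box. In 250-base windows before the start, on either strand, CCAAT was present in 18 of the 30 genes and in 34.4% of 19061 protein-coding genes. The GC box was present in 23 of the 30 and in 59.9% of all, the hypoxia core in 9 and 20.5%, and the E-box in 3 and 7.87%. The antioxidant core was present in 4 (MPC1, IDH3G, IDH1 and ME1) and in 11.4% of all. CCGGAAG, an ETS motif, was present in 5 and in 11.9% of all, and TGACGTCA, the cAMP response element, in 2 and in 2.46%. The amino acid response element TGATGCAA and the SMAD palindrome GTCTAGAC were in none of the 30 windows and in 0.582% and 0.178% of all.

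Libraries held between 14124688 and 38406952 counts, of which the 30 genes made up 0.27% to 0.364%. Values are given as CPM, counts scaled to library size after TMM scaling over the 24 libraries, and fold-changes come from fits to each comparison's own libraries. A gene was called at an adjusted p under 0.05 and counted as a DEG if its log2 fold-change also exceeded 1 in size. Ratios of the printed CPM lie above the fitted log2 fold-changes by 0.082 for TGFβ in MI and by 0.035 in MII, and the other comparisons differ by less. The spheres expressed epithelial CDH1 at 521 to 726 CPM and mesenchymal VIM at 1.59 to 10.7, and MDA-MB-231 cells CDH1 at 0.746 to 18.8 and VIM at 568 to 1044 CPM. Not all epithelial markers followed CDH1. KRT8 averaged 632 CPM in MI Ctrl and 1364 in MII Ctrl, against 602 in WT and 1124 in siSMAD2/3/4. KRT18 averaged 546 and 857 CPM in MI Ctrl and MII Ctrl, against 461 in WT and 478 in siSMAD2/3/4. EPCAM was lower in MDA-MB-231, like CDH1. The 4 epithelial markers summed to 1748 to 3834 CPM in spheres and 937 to 1672 in MDA-MB-231. Of 4 leukocyte markers, 3 in the spheres and 4 in MDA-MB-231 stayed below 1 CPM. HRAS was higher in MII Ctrl than in MI Ctrl (log2 fold-change 2.45 ± 0.0437 SE, edgeR adjusted p = 1.23e-45), and siSMAD2/3/4 lowered SMAD2 by 1.92, SMAD4 by 1.72 and SMAD3 by 0.69 on the log2 scale.

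A pair of features limits the MDA-MB-231 SLUG libraries. SNAI2, the targeted gene, was higher in the libraries labelled SLUG KO (63.5, 57.7 and 64.3 CPM) than in WT (30.2, 20.9 and 33.7 CPM), with a log2 fold-change of 1.10 ± 0.21 SE (edgeR adjusted p = 0.0399). Counts over the whole gene do not show whether the edited transcript makes protein. Per the methods, the knockout clones were checked by ddPCR and immunoblotting. WT replicate 2 stood apart: its chi-square per gene against the other WT libraries was 235 and 288, where theirs against each other was 18. The mitochondrial genome gave 2.4% of its counts against 0.812% and 0.656%. The SLUG comparison is given with and without it, as are the WT levels and ratios that it moved most.

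Some of the 30 genes differed in level between the 2 kinds of culture (the plot of 6 genes by library). IDH1 (chr2:208236229-208266074, minus strand) was the member with the highest level per length in all 4 sphere groups, at 383 ± 18.4 TPM in MI Ctrl and 769.8 ± 17.9 in MII Ctrl (SD, n = 3). Relative to TMM-scaled CPM, TPM shifts every gene in MII Ctrl against MI Ctrl up by 0.68 on the log2 scale. This pair of TPM values therefore overstates the difference found under TMM scaling. In the MDA-MB-231 groups IDH1 was at 50.3 ± 23.1 in WT (63.5 without WT replicate 2), 82.7 ± 11.0 in libraries labelled SLUG KO, 132 ± 4.32 in Csi and 148 ± 0.62 TPM in siSMAD2/3/4. There ACLY led in WT, Csi and siSMAD2/3/4, at 313 ± 71.0, 502 ± 5.82 and 369 ± 12.3 TPM, and PDP1 led in those labelled SLUG KO at 300.5 ± 26.9 TPM. In CPM, 8 of the 30 members had no overlap between the 12 sphere and the 12 MDA-MB-231 libraries, with or without WT replicate 2. The other members overlapped, among them MDH2, with medians of 185 CPM in spheres and 186 in MDA-MB-231. The share of all genes without overlap was not counted, so the number says nothing particular to the 30. IDH1 was at 689 to 1314 CPM in spheres and 26.9 to 178 in MDA-MB-231 (from 75.7 without WT replicate 2), and PDHX, SUCLA2 and SUCLG1 were also higher in spheres. ACLY (130.2 to 323 CPM in spheres, 370.4 to 647 in MDA-MB-231), PDP1, ACO1 and PC were higher in MDA-MB-231. Line, culture form and, for 6 libraries, batch differ together here, so this is a description with no test, and fewer cells of a kind cannot be told apart from less RNA per cell.

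**Figure D1:**
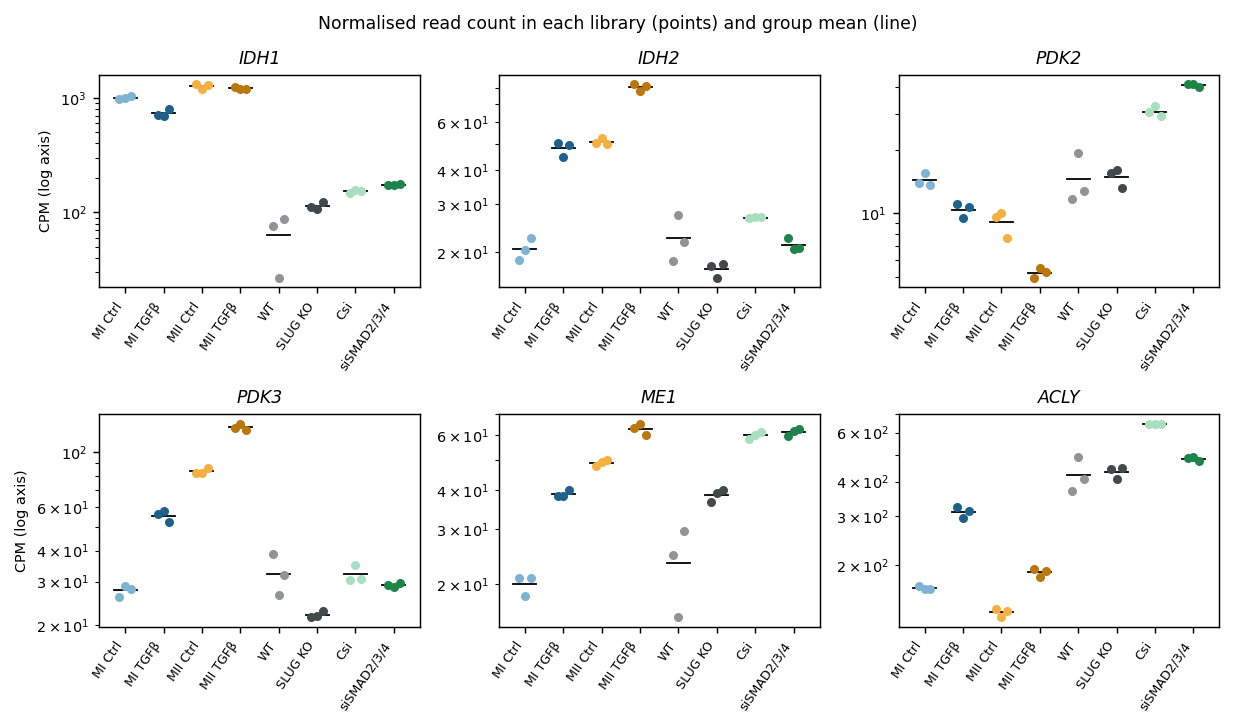
CPM on a log axis in each of the 24 libraries (points) with the mean of each group of 3 (line) for 6 genes. IDH1 lies between 689 and 1314 CPM in the sphere libraries and between 26.9 and 178 in MDA-MB-231, and WT replicate 2 is the lowest IDH1 point.

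The summed level of the 30 genes depended on the scale. It was 1336 ± 89.9 TPM in MI Ctrl and 1339 ± 64.2 in MI TGFβ, but 745 ± 7.38 and 869 ± 43.6 as TMM-scaled CPM per kilobase. In MII it was 1953 ± 16.6 TPM in Ctrl and 1655 ± 48.5 in TGFβ, but 683 ± 13.2 and 799.0 ± 10.0 CPM per kilobase. The small cytoplasmic RNA RN7SL1 alone took 47.4% to 53.0% of TPM in MI Ctrl, 50.7% to 54.6% in MI TGFβ, 30.7% to 33.3% in MII Ctrl and 44.7% to 47.0% in MII TGFβ. Relative to TMM-scaled CPM, TPM shifted every gene of a comparison by the same log2 amount, −0.22 for TGFβ in MI, −0.47 for TGFβ in MII and 0.68 for MII Ctrl against MI Ctrl; the part of RN7SL1 in these shifts was not tested. All changes below are relative to TMM scaling, under which the median log2 fold-change of all genes tested lay between −0.05 and 0.02.

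TGFβ in MI-spheres raised most of the 30 genes (the plot of fold-changes in 3 panels). Of the 30, 22 rose, 3 fell and 5 were not called, against 28.7% of all 16863 genes tested that rose and 27.4% that fell. Their median log2 fold-change was 0.27 against −0.02 over all genes. On the TPM scale 22 of 30 means were higher after TGFβ. IDH2 was the 1 DEG, where 13.6% of all genes were DEGs.

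In MII-spheres 25 rose, 2 fell and 3 were not called, against 29.9% and 27.6% of 16396 genes. The median log2 fold-change was 0.32 against −0.02 over all genes. The direction of this majority turns on the TPM scale, where 10 of 30 means were higher and 20 lower after TGFβ. None of the 30 was a DEG there, where 10.6% of all genes were. Markers of basal mammary epithelium moved beside these calls: 5 of 6 were higher after TGFβ without overlap in each line, and their summed level went from between 2163 and 2239 CPM in MI Ctrl to between 4030.0 and 4234 in MI TGFβ, and from between 917 and 973 to between 2321 and 2458 in MII. Their part in the result was not tested.

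**Figure D2:**
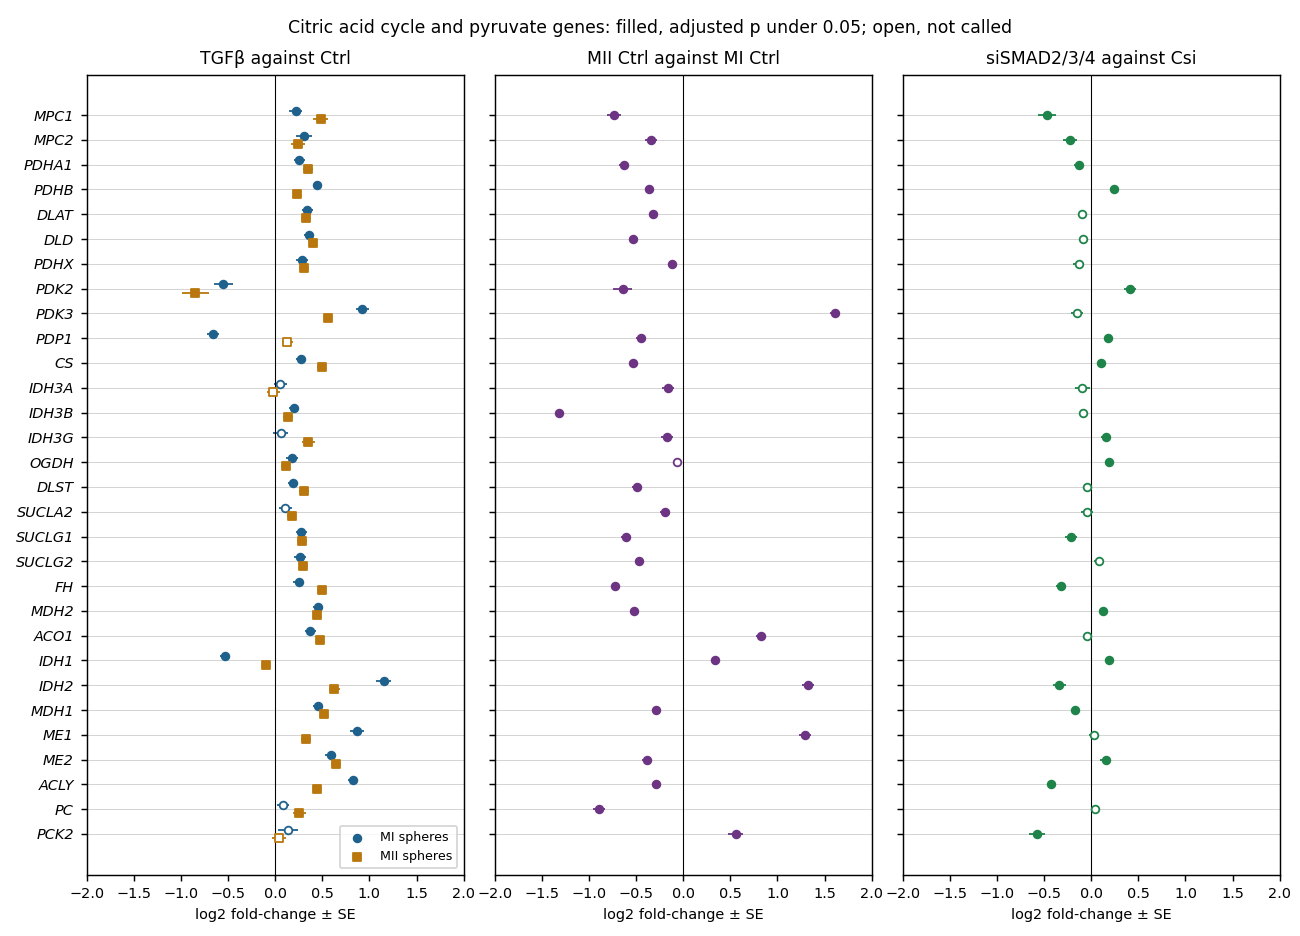
Log2 fold-change ± SE of each of the 30 genes for TGFβ in MI (circles) and MII (squares), for MII Ctrl against MI Ctrl and for siSMAD2/3/4 against Csi; filled marks passed an adjusted p of 0.05. After TGFβ 22 genes in MI and 25 in MII are filled to the right of 0, and between the untreated lines 23 are filled to its left.

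Pyruvate import and the dehydrogenase complex rose as a whole in both lines. MPC1 and MPC2, the carrier subunits, rose by 0.22 and 0.30 on the log2 scale in MI and by 0.48 and 0.24 in MII. All 5 genes of the complex rose, by 0.26 (PDHA1) to 0.45 (PDHB) in MI and by 0.23 (PDHB) to 0.40 (DLD) in MII. On the TPM scale, which is lower by 0.47 in MII, only MPC1 of these 7 genes would keep its sign there.

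The kinases that switch the complex off moved apart. PDK3 (chrX:24465270-24550466, plus strand) was at 26.1, 28.9 and 27.9 CPM in MI Ctrl and at 56.1, 57.7 and 52.4 in MI TGFβ. It rose by a log2 fold-change of 0.92 ± 0.0708 SE (1.90-fold, edgeR adjusted p = 5.75e-10). In MII it was at 82.2, 82.5 and 86.0 CPM in Ctrl and 126, 130.5 and 123 in TGFβ, and rose by 0.56 ± 0.0455 (adjusted p = 1.8e-15). The treated libraries lay above all controls in both lines, and the means of PDK3, IDH2, ME2, MDH1 and FH were higher after TGFβ in MII on the TPM scale as well.

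PDK2 (chr17:50094737-50112152, plus strand), the other kinase, went the opposite way. It was at 14.0, 15.6 and 13.7 CPM in MI Ctrl and at 11.1, 9.49 and 10.8 in MI TGFβ, and fell by 0.55 ± 0.10 on the log2 scale (edgeR adjusted p = 9.34e-05). In MII it was at 9.59, 10.0 and 7.60 CPM in Ctrl and at 4.93, 5.46 and 5.23 in TGFβ, and fell by 0.85 ± 0.14 (adjusted p = 8.5e-07). The groups did not overlap in either line. Annotated exons of SAMD14 cover 38.6% of its counted length, and the counting used no strand, so reads of both genes cannot be told apart there.

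PDK2 per length was 1.29 ± 0.0709 times PDK3 in MI Ctrl and 0.467 ± 0.0535 times in MI TGFβ (SD, n = 3). The ratio was 0.269 ± 0.0442 in MII Ctrl and 0.102 ± 0.00418 in MII TGFβ. Per length, PDK3 was the higher of the pair in MII and in treated MI libraries, and the lower in untreated MI. In CPM, PDK3 was above PDK2 in all sphere libraries, at 26.1 or more against at most 15.6. The order in untreated MI thus rests on the counted lengths of 13506 bases for PDK3 and 5471 for PDK2. The ratio is taken within a library and does not change with its scaling.

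PDP1, the phosphatase that reactivates the complex, differed between the lines. In MI it was at 64.1, 61.2 and 65.6 CPM in Ctrl and at 44.9, 39.5 and 43.8 in TGFβ, and fell by 0.66 ± 0.063 (edgeR adjusted p = 1.81e-08). In MII it was at 44.6, 47.9 and 46.3 CPM in Ctrl and at 52.9, 50.8 and 52.3 in TGFβ, a log2 fold-change of 0.13 ± 0.0582 that was not called (adjusted p = 0.0528).

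Among the 11 mitochondrial cycle enzymes 8 rose in MI and 10 in MII, and none fell. In MI the rises ran from 0.17 (OGDH) to 0.45 (MDH2), and IDH3A, IDH3G and SUCLA2 were not called. In MII they ran from 0.11 (OGDH) to 0.50 (FH), and only IDH3A was not called. The OGDH call was lost in 3 of 14 alternatives in MI, among them those without MI Ctrl replicate 3 or MI TGFβ replicate 1. The MII call was lost in 7, among them those without MII Ctrl replicate 1 or 3 or MII TGFβ replicate 2 or 3. The IDH3B call in MII was lost in 4, among them those without MII Ctrl replicate 2 or 3 or MII TGFβ replicate 1. FH, which hydrates fumarate to malate, was at 70.1, 69.0 and 69.7 CPM in MII Ctrl and at 100.5, 97.0 and 103.9 in MII TGFβ (0.50 ± 0.0488, edgeR adjusted p = 1.31e-12). CS, which makes citrate, rose by 0.28 ± 0.0536 in MI and by 0.49 ± 0.0489 in MII. IDH3A, the catalytic subunit of the NAD-linked isocitrate dehydrogenase, was at 0.05 ± 0.0685 and −0.02 ± 0.0706, and exons of ACSBG1 and CIB2 cover 38.8% of its counted length.

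The NADP-linked isocitrate dehydrogenases moved apart. IDH2 (chr15:90083045-90102477, minus strand), the mitochondrial enzyme, was at 18.8, 20.4 and 22.6 CPM in MI Ctrl and at 50.5, 44.9 and 49.6 in MI TGFβ. Its log2 fold-change was 1.15 ± 0.0769 (2.22-fold, edgeR adjusted p = 6.7e-11), the largest of the 30 in size. In MII it was at 50.3, 52.6 and 50.1 CPM in Ctrl and at 82.8, 78.5 and 81.6 in TGFβ, and rose by 0.63 ± 0.0533 (adjusted p = 8.5e-15). The untreated MII libraries were at the level that treated MI libraries reached.

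IDH1, the cytosolic enzyme, was at 983, 1001 and 1033 CPM in MI Ctrl and at 715, 689 and 799.6 in MI TGFβ. It fell by 0.54 ± 0.0539 on the log2 scale (edgeR adjusted p = 3.8e-08), with no overlap. In MII it was at 1314, 1199 and 1281 CPM in Ctrl and at 1246, 1198 and 1192 in TGFβ, and was called lower at −0.10 ± 0.0341 (adjusted p = 0.0139). Those groups overlap, and the MII call was lost in 7 of 14 alternatives, among them those without MII Ctrl replicate 1 or 3 or without MII TGFβ replicate 2 or 3, which leave 1 lower gene in MII. IDH1 per length was 29.0 ± 1.95 times IDH2 in MI Ctrl, 9.02 ± 0.589 in MI TGFβ, 14.7 ± 1.05 in MII Ctrl and 8.88 ± 0.199 in MII TGFβ. The ratios of treated spheres lay close together in both lines, and those of untreated spheres did not overlap.

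**Figure D3:**
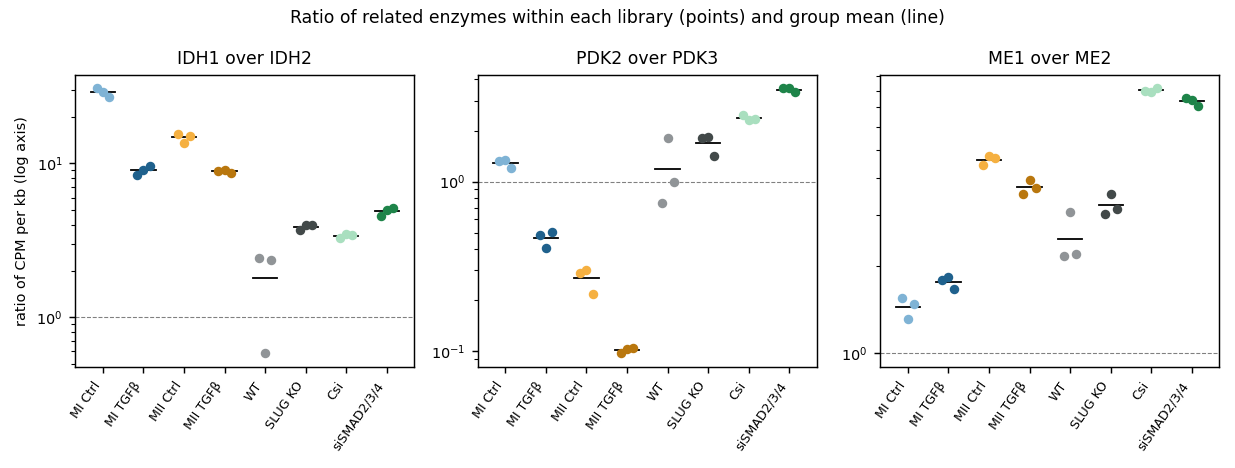
Ratio of the level per length of IDH1 to IDH2, PDK2 to PDK3 and ME1 to ME2 within each library (points, log axis) with the mean of each group of 3 (line); the dashed line marks equal levels. IDH1 over IDH2 falls from 29.0 to 9.02 in MI and from 14.7 to 8.88 in MII after TGFβ.

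The malic enzyme genes ME1 and ME2, whose products turn malate into pyruvate, both rose. ME3, a further malic enzyme gene counted among the pathway relatives below, went the other way. Its log2 fold-change was −0.66 ± 0.14 in MI and −0.60 ± 0.17 in MII, where the groups overlap. ME1 (chr6:83210402-83431051, minus strand), the cytosolic NADP-linked enzyme, was at 21.0, 18.4 and 21.0 CPM in MI Ctrl and at 38.4, 38.3 and 40.1 in MI TGFβ (0.87 ± 0.0735, edgeR adjusted p = 2.71e-09). In MII it rose by 0.33 ± 0.0567, from 47.6, 49.3 and 49.8 to 63.3, 65.4 and 60.0 CPM, a rise that turns on the TPM scale. ME2 (chr18:50879080-50954257, plus strand), in the mitochondrion, also rose in both lines. It was at 64.7, 66.8 and 67.3 CPM in MI Ctrl and at 102.3, 99.7 and 114 in MI TGFβ (0.59 ± 0.0573), and at 51.0, 49.2 and 50.6 in MII Ctrl and 85.1, 78.7 and 77.4 in MII TGFβ (0.64 ± 0.0543, adjusted p = 6.89e-15). The difference between its responses was 0.06 ± 0.0792 (adjusted p = 0.632).

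ACLY (chr17:41866917-41930542, minus strand), which makes cytosolic acetyl-CoA from citrate, was at 169, 164 and 164 CPM in MI Ctrl and at 323, 296 and 314 in MI TGFβ. It rose by 0.83 ± 0.0503 (1.77-fold, edgeR adjusted p = 1.46e-11), and in MII by 0.45 ± 0.041, from 139, 130.2 and 137 to 194, 182 and 190.3 CPM. MDH1, the cytosolic malate dehydrogenase, was at 142, 134 and 139 CPM in MII Ctrl and at 203, 205 and 201 in MII TGFβ (0.52 ± 0.0397, adjusted p = 1.87e-16), and its MI change of 0.46 ± 0.0572 was close. The mitochondrial MDH2 rose by 0.45 and 0.44, and MDH1 over MDH2 per length stayed at 0.657 and 0.658 in MI and at 0.773 and 0.816 in MII. PC, which makes oxaloacetate from pyruvate, rose in MII (0.26 ± 0.0669) and was at 0.08 ± 0.0624 in MI. PCK2, which makes phosphoenolpyruvate from oxaloacetate, was not called in either line.

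The response to TGFβ differed between the lines for 10 of the 30 genes, tested as an interaction in 1 fit of the 12 sphere libraries, with the MII response minus the MI response as the difference. It was higher in MII for 5 and lower for 5, against 12.6% and 9.75% of 18591 genes, and 5.84% of all genes had a difference over 1 while none of the 30 did. PDP1 had the largest difference, 0.80 ± 0.0859 (edgeR adjusted p = 1.63e-09), with MI falling and MII at 0.13. IDH1 differed by 0.45 ± 0.0652, with the larger fall in MI. ME1 (−0.53 ± 0.0922), IDH2 (−0.51 ± 0.0931), ACLY (−0.37 ± 0.0655) and PDK3 (−0.35 ± 0.0825) rose in both lines and rose less in MII. The remaining calls were IDH3G (0.31), FH (0.25) and CS (0.23), which rose more in MII or were called there only, and PDHB (−0.21), and each of these 4 calls was lost in 3 to 10 of 19 alternatives. The higher direction of IDH3G, FH and CS was not kept on the TPM scale, where the log2 responses in MI and MII were −0.07 and −0.08 for IDH3G, 0.11 and 0.06 for FH, and 0.14 and 0.06 for CS. The other 7 differences kept their sign on it, with PDP1 at 0.49 and IDH1 at 0.14. Without MI Ctrl replicate 1, 2 or 3, MI TGFβ replicate 1, 2 or 3, MII Ctrl replicate 1 or MII TGFβ replicate 1 or 3, the higher calls were 2 or 3. PDK2, which fell in both lines, differed by −0.29 ± 0.17, which did not pass (adjusted p = 0.253).

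**Figure D4:**
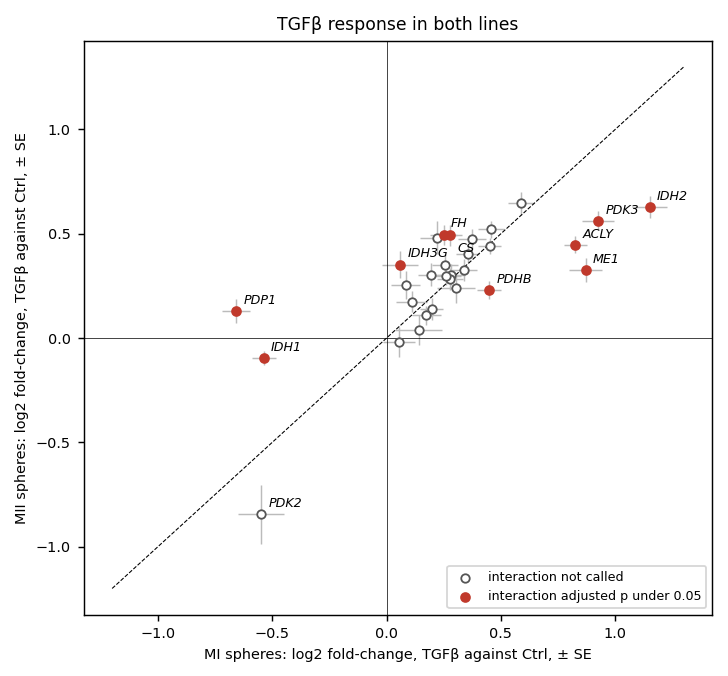
Log2 fold-change after TGFβ in MI-spheres (x axis) against MII-spheres (y axis), ± SE, for the 30 genes; filled points differ between the lines at an adjusted p under 0.05, and the dashed line marks equal responses. PDP1 and IDH1 lie above the line on the left, and IDH2, PDK3, ACLY and ME1 lie below it on the right.

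Untreated MII-spheres were compared with untreated MI-spheres to see what separates the HRAS-transformed line at rest. These 6 libraries are also the controls of the TGFβ comparisons. Of the 30 genes 6 were higher and 23 lower in MII, against 31.7% and 32.5% of 17862 genes. The median log2 fold-change was −0.35 against 0.02 over all genes, but on the TPM scale 26 of 30 means were higher in MII. Of the 30, 4 were DEGs (IDH3B lower and PDK3, IDH2 and ME1 higher), where 20.1% of all genes were. The 6 higher genes were PDK3, IDH2, ME1, ACO1, PCK2 and IDH1, and all but PDK3 and PCK2 are cytosolic or NADP-linked enzymes.

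PDK3, at 27.6 ± 1.43 CPM in MI Ctrl and 83.6 ± 2.11 in MII Ctrl (SD, n = 3), was higher by 1.61 ± 0.0563 (3.05-fold, edgeR adjusted p = 8.37e-32). IDH2 was higher by 1.33 ± 0.065 (2.51-fold) and ME1 by 1.29 ± 0.064 (2.45-fold), each with its library values given above. ACO1 (chr9:32384603-32454769, plus strand), the cytosolic aconitase that also binds iron-responsive RNA, was at 54.3, 51.6 and 50.9 CPM in MI Ctrl and at 96.2, 87.9 and 93.3 in MII Ctrl (0.83 ± 0.0501, adjusted p = 3.65e-21). The groups of these 4 genes were far apart relative to their spread. On either scale these 4 were higher in MII.

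The lower genes included all of pyruvate import and the dehydrogenase complex and 10 of 11 mitochondrial cycle enzymes, and OGDH (−0.07 ± 0.043) was the 1 not called. The PDHX call (−0.12) was lost in 8 of 14 alternatives, among them those without MI Ctrl replicate 2 or 3 or MII Ctrl replicate 1 or 2, and the IDH3A call in 4, among them those without MI Ctrl replicate 2 or MII Ctrl replicate 3. IDH3B (chr20:2658395-2664219, minus strand), a subunit of the NAD-linked isocitrate dehydrogenase, was at 152, 147 and 149 CPM in MI Ctrl and at 61.4, 58.9 and 58.2 in MII Ctrl. It was lower by 1.32 ± 0.0438 on the log2 scale (2.49-fold, edgeR adjusted p = 8.76e-33), while its partners IDH3A and IDH3G were lower by 0.16 and 0.17. IDH3B over IDH3G per length was 3.74 in MI Ctrl and 4.14 in MI TGFβ, but 1.71 and 1.47 in the MII groups and 1.08 to 1.88 in MDA-MB-231. PC (chr11:66848417-66958386, minus strand) was at 54.9, 56.3 and 51.0 CPM in MI Ctrl and at 28.1, 28.7 and 29.8 in MII Ctrl (−0.89 ± 0.0598, adjusted p = 2.21e-19). MPC1 and FH were lower by 0.74 and 0.72. On the TPM scale, which is 0.68 higher in MII, IDH3B, PC, MPC1 and FH would keep their sign and the rest of the lower genes would not. Marker lists also differed between the untreated lines. Of 6 basal markers 4 were lower in MII without overlap and 1, KRT14, was higher, and TP63 went from a mean of 51.2 to 0.621 CPM, KRT5 from 106.6 to 18.9 and KRT17 from 1281 to 329.6. The summed basal level was 2163 to 2239 CPM in MI Ctrl and 917 to 973 in MII Ctrl. All 4 epithelial markers were higher in MII, at a summed level of 1748 to 1779 and 2959 to 2985 CPM. Of 3 endothelial markers PECAM1 was higher in MII (9.79 and 104.6 CPM) and CDH5 (22.2 and 10.7) and VWF (1.33 and 0.185) were lower. Of 3 fibroblast markers 2 were lower, with DCN at 11.7 and 0.0296 CPM. The part of these markers in the result was not tested.

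Depletion of SMAD2, SMAD3 and SMAD4 in MDA-MB-231 moved 18 of the 30 genes by small amounts. Of the 30, 9 rose and 9 fell, against 16.3% and 19.7% of 17696 genes, with a median log2 fold-change of −0.07 against 0.00 over all genes. None of the 30 was a DEG, where 1.90% of all genes were. PCK2 (chr14:24094053-24110598, plus strand) was at 22.9, 21.3 and 23.9 CPM in Csi and at 15.7, 16.7 and 13.4 in siSMAD2/3/4, and fell by 0.57 ± 0.0802 (edgeR adjusted p = 7.81e-07). Both carrier genes fell: MPC1 was at 12.6, 17.1 and 17.2 CPM in Csi and at 11.6, 11.8 and 10.9 after the siRNAs (−0.47 ± 0.0954), and MPC2 fell by 0.22 ± 0.0713. Csi replicate 1 was the lowest control for both and lay near the treated libraries for MPC1. For MPC2, at 26.6, 33.4 and 30.4 CPM in Csi and 27.5, 25.2 and 25.1 after the siRNAs, it lay within the treated range, so those groups overlap. The MPC2 call was lost in 3 of 14 alternatives: without Csi replicate 2, without siSMAD2/3/4 replicate 2 and with flow cell as a term.

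ACLY was at 646, 647 and 644 CPM in Csi and at 486, 491 and 472 in siSMAD2/3/4, and fell by 0.42 ± 0.0367 (edgeR adjusted p = 6.19e-11). IDH2 was at 26.7, 27.0 and 26.9 CPM in Csi and at 22.7, 20.6 and 20.7 after the siRNAs (−0.34 ± 0.0669), and FH at 67.6, 74.2 and 71.8 and at 55.9, 60.3 and 55.5 (−0.32 ± 0.0504). The genes that rose were led by PDK2, at 30.4, 32.4 and 29.2 CPM in Csi and 41.5, 41.3 and 40.2 in siSMAD2/3/4 (0.41 ± 0.059, adjusted p = 1.2e-06), which were its highest levels of all groups. IDH1 rose by 0.18 ± 0.0409 and PDP1 by 0.18 ± 0.0428, and IDH1 over IDH2 per length went from 3.39 to 4.88. PDK3 was at −0.15 ± 0.0644 (adjusted p = 0.066). By their file names siSMAD2/3/4 replicates 1 and 2 were run on another flow cell than the other 4 libraries. With flow cell as a term 7 rose and 6 fell. PCK2, MPC1, ACLY, IDH2, FH and PDK2 stayed called in that fit, and MPC2 did not. Without siSMAD2/3/4 replicate 2, 5 rose and 6 fell. The shares of all genes called in these alternative fits are not given here.

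No gene of the 30 was called between libraries labelled SLUG KO and WT with all 6 libraries by edgeR, while 1.45% of 17428 genes were higher, 1.89% lower and 3.05% DEGs. At an unadjusted p under 0.05 there were 3 of the 30, beside 3321 of the 17428 genes tested. DESeq2 called 1 of the 30 higher, and the share of all genes in that fit is not given here. PDP1 was at 215, 94.4 and 222 CPM in WT and at 481, 495 and 508 in the libraries labelled SLUG KO (1.46 ± 0.32, adjusted p = 0.0637). WT replicate 2 was the lowest WT library for 19 of the 30 genes and the highest for 9. For IDH1 it was at 26.9 CPM where the others were at 75.7 and 87.2, and for IDH2 at 27.4 where they were at 18.6 and 21.9, so that IDH1 over IDH2 was 0.582 in it and 2.42 and 2.36 in the others.

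Without WT replicate 2, 13 of the 30 genes were called, 8 higher and 5 lower, against 16.8% and 14.4% of 17909 genes. PDP1 was higher by 1.17 ± 0.09, ME1 by 0.50, IDH1 by 0.47 and PDHB by 0.43, and OGDH, PC, ACO1 and SUCLG2 by 0.25 to 0.36. PDK3 was lower by 0.69, MPC1 by 0.51, FH by 0.43, SUCLG1 by 0.37 and CS by 0.24. ME1 was at 24.8, 15.7 and 29.7 CPM in WT and at 36.7, 39.3 and 40.1 in the libraries labelled SLUG KO, and PDK3 at 38.6, 26.5 and 31.8 and at 21.6, 21.7 and 22.9. For PDP1, ME1 and PDK3 the libraries labelled SLUG KO lay outside all 3 WT libraries.

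**Figure D5:**
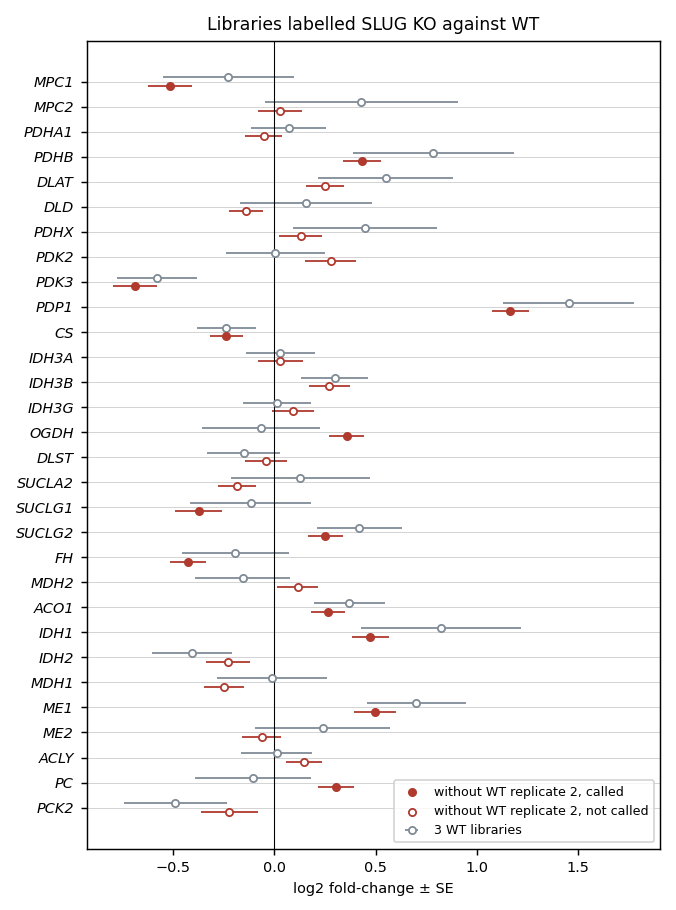
Log2 fold-change ± SE of the 30 genes in libraries labelled SLUG KO against WT, with all 3 WT libraries (grey) and without WT replicate 2 (red, filled where called at an adjusted p under 0.05). The SEs shrink without that library and 13 genes are filled, of which PDP1 at 1.17 is the farthest from 0.

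Another 30 genes of the same pathway, fixed as a list of relatives of the members, were counted beside them. They are the succinate dehydrogenase subunits and assembly factors, further kinases, phosphatases and dehydrogenases, lipoate enzymes, and mitochondrial and monocarboxylate carriers. After TGFβ in MI 14 of 30 tested rose and 5 fell, among them PDK4, PDPR and ME3. In MII 17 of 28 rose and 4 fell, among them the same genes. Those are 46.7% and 16.7% of the relatives in MI and 60.7% and 14.3% in MII, beside the shares of all genes given above. LDHA, which turns pyruvate into lactate, rose by 2.04 ± 0.0557 in MI and 1.46 ± 0.0342 in MII. The lactate carrier gene SLC16A1 rose by 1.54 and 0.72 and the kinase gene PDK1 by 1.52 and 0.71. PDK4, a further kinase, was at 143, 142 and 145 CPM in MI Ctrl and at 33.1, 32.4 and 35.3 in MI TGFβ (−2.18 ± 0.0563, edgeR adjusted p = 7.89e-18), and fell by 0.39 ± 0.0404 in MII.

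The 4 pyruvate dehydrogenase kinases were split after TGFβ in both lines, with PDK1 and PDK3 higher and PDK2 and PDK4 lower. After siSMAD2/3/4 PDK2 and PDK4 rose (0.41 and 1.27) and PDK1 fell by 0.45. In untreated MII against MI 2 of 29 pathway relatives were higher (LIPT1 and PDK4) and 19 lower, 6.90% and 65.5% against 31.7% and 32.5% of all genes. After siSMAD2/3/4 5 of 29 rose, among them PDK4 and PDP2, and 5 fell (GOT1, GOT2, LDHA, PDK1 and SLC16A3). Each count is 17.2% of the relatives, near the 16.3% and 19.7% of all genes, so it says nothing particular to them. None of 29 was called in the SLUG comparison by edgeR with all 6 libraries. The TGFβ response differed between the lines for 9 of 29 (13.8% higher and 17.2% lower in MII), higher for 4, among them PDK4, and lower for LDHA, PDK1, SDHC, SLC16A1 and SLC25A1.

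Ratios between further paired genes, taken per length within each library, varied less across the 8 groups. ME1 over ME2 was 1.45 in MI Ctrl and 1.76 in MI TGFβ, 4.63 and 3.73 in the MII groups, 2.48 in WT (2.18 without WT replicate 2), 3.23 in SLUG KO, 8.02 in Csi and 7.36 in siSMAD2/3/4. SUCLA2, the ADP-forming subunit of succinyl-CoA ligase, was below the GDP-forming SUCLG2 in every group, at 0.158 to 0.271 times its level. MPC1 over MPC2 was 1.62 and 1.54 in the MI groups, 1.22 and 1.45 in the MII groups, 1.55 in WT (1.24 without WT replicate 2), and 0.751 to 0.884 in SLUG KO, Csi and siSMAD2/3/4. IDH3A over IDH3B ranged from 0.0739 to 0.181. Lengths are the union of annotated exons, so ratios between genes change with the exons a cell line uses, and exons of DCAF6 cover 21.8% of the counted length of MPC2 and exons of MAP3K15 21.2% of PDHA1.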

How the data were processed

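Total RNA libraries (TruSeq stranded, RiboZero Gold, paired-end reads) were trimmed with Trimmomatic, aligned to GRCh38.p13 with STAR and counted by the authors with featureCounts (Subread 2.0.0) on GENCODE release 38, without strand and at a mapping quality of at least 30, per the file headers and methods. The deposited values are raw counts per gene, named here by GENCODE release 44. Of 40 samples, the 16 ATAC-seq samples were not analysed here.

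edgeR 4.0.16 (R 4.3.3; TMM, filterByExpr, quasi-likelihood test, Benjamini-Hochberg over all genes tested) was fitted to each comparison's own 6 libraries, and to the 12 sphere libraries for the interaction. It was tested on simulated data. DESeq2 1.42.0 was an alternative. TPM was computed from the counts and the length column. P-values measure the spread between libraries labelled as biological replicates. The members and lists were chosen with earlier results of these data known. Library values are given for DEGs and for the 6 called members of largest fold-change per comparison. Same-numbered replicates did not deviate together (r of −0.27 to 0.0912), so they were not paired. Promoter windows were read from GRCh38 at GENCODE main starts and checked against 23 RefSeq windows. Some genes of the wider pathway list are not reported here by name.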

Additional observations from a re-analysis of the deposited data

Results flagged for a closer look

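The response to TGFβ differed between MI- and MII-spheres for 10 of the 30 genes, by the interaction term of 1 edgeR fit to the 12 sphere libraries, and each difference is the MII response minus the MI response on the log2 scale. Of the 30, 16.7% were higher in MII and 16.7% lower, against 12.6% and 9.75% of all 18591 genes tested. PDP1 (0.7983) and IDH1 (0.4499) fell in MI, and their MII responses were 0.13 and −0.10. IDH2 (-0.5117), ME1 (-0.5346), ACLY (-0.37) and PDK3 (-0.3529) rose in both lines and rose less in MII. These 6 differences passed in all 19 alternatives run, and a library-wide shift such as that of TPM would add the same amount to every gene. IDH3G (0.3061), FH (0.2549) and CS (0.2254) differed the other way, a direction that was not kept on the TPM scale, and PDHB (-0.2085) rose less in MII, but each of these 4 missed the threshold in some alternatives.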

How the results depend on the processing

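For TGFβ in MI and for MII Ctrl against MI Ctrl, the counts of called genes kept within 1.5 times of their values under every alternative run: DESeq2, its size factors in edgeR, other low-count filters, a gene-length trend, a replicate block, all 12 sphere libraries in 1 fit and leaving out each library. No called gene changed sign in these fits. Genes that kept their call in all alternatives were 23 of 25 for TGFβ in MI, 23 of 27 in MII, 26 of 29 between the untreated lines, 11 of 18 for siSMAD2/3/4 and 6 of 10 for the interaction. For TGFβ in MII the count of lower genes was 1 with DESeq2, 1 with no low-count filter and 1 with all 12 sphere libraries, and 1 to 2 when a library was left out, IDH1 being the gene lost. In the SLUG comparison 1 gene was higher with DESeq2 and 1 with no low-count filter, and 7 were higher and 3 lower with the 18 libraries that share its batch label in 1 fit. Leaving out a library gave 0 to 8 higher and 0 to 5 lower, all from WT replicate 2. For siSMAD2/3/4 the higher genes were 5 to 9 when a library was left out, with 5 without siSMAD2/3/4 replicate 2. For the interaction the higher genes were 3 with no low-count filter and 2 to 5 when a library was left out. The causes of these changes were not tested. The replicate block gave 22 higher and 3 lower genes for TGFβ in MI, 25 and 2 in MII, 6 and 23 between the untreated lines, 0 and 0 in the SLUG comparison, 7 and 9 for siSMAD2/3/4 and 5 and 5 for the interaction, and the shared numbers showed no pairing. Summed levels as CPM per kilobase were 745 in MI Ctrl, 869 in MI TGFβ, 683 in MII Ctrl, 799.0 in MII TGFβ, 561 in WT, 676 in SLUG KO, 629.7 in Csi and 609 in siSMAD2/3/4, against TPM sums of 1336, 1339, 1953, 1655, 2141, 2302, 2548 and 2423. With 3 libraries a group the smallest differences called lay near 0.1 on the log2 scale for TGFβ in MII and between the untreated lines. In the interaction the smallest in size was −0.21 (PDHB). In the SLUG comparison with all 6 libraries not even PDP1 at 1.46 was called.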
